A study of Mus musculus with 48 samples.

Results

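The collagen genes were taken as the protein-coding mouse genes whose symbol is Col, a number, a and a number, which gave 44 genes of the 55416 genes counted. They were followed in whole livers of 6 genotype groups, 48 livers in all with 8 in each group, by sequencing of stranded messenger RNA libraries. In the knock-in study, male C57Bl/6J mice carried 0, 1 or 2 copies of a dominant-negative (DN) missense allele of Nr1h3, the gene of the oxysterol receptor LXRα, and are named DN:WT, DN:HET and DN:HOM. In the knockout study, mice labelled as C57Bl/6J carried 0, 1 or 2 copies of a null allele of Nr1h3 and are named KO:WT, KO:HET and KO:HOM. All mice, wild types included, received western diet for 8 weeks from the age of 8 weeks and were killed at 16 weeks. The knock-in allele descended from a single CRISPR founder crossed to C57BL/6J, and DN:WT mice were littermates of the carriers. The knockout allele came from a mixed Sv129 and C57Bl/6 background and was backcrossed to C57Bl/6, and the knockout experiment was described as a repeat of the knock-in one, which used males. Both alleles are germline, so every cell type of the liver carried them. The 2 studies were done at different sites, so study and site cannot be told apart, and the effects are compared within each study first.

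The libraries held from 5332897 to 16961379 reads in genes, with a median of 15879971.5, and 2 of the 48 libraries were under 10000000 reads (KO:HET animal 3 and KO:HOM animal 17). Nr1h3 was at 93.6 ± 8.82 reads per 1000000 (CPM; SD, n = 8) in KO:WT, 59.2 ± 5.63 in KO:HET and 27 ± 1.99 in KO:HOM, in the order of the labels. The knock-in allele is a base change that a count cannot read, and Nr1h3 was at 91.8 ± 5.04 CPM in DN:WT and 72.8 ± 3.56 in DN:HOM (n = 7 each). Hepatocyte markers were the most abundant of the marker lists in each group, with a summed level of at least 34498 CPM among the 46 livers described next. The libraries labelled DN:WT animal 10 and DN:HOM animal 12 stood apart from their groups in collagen genes, each lying within or near the range of the other group. Col1a1 was at 141 CPM in the library labelled DN:WT animal 10, against 7.84 to 17.7 in the other DN:WT livers. It was at 9.37 CPM in the library labelled DN:HOM animal 12, against 100 to 145 in the other DN:HOM livers. Several summed marker lists set these libraries apart as well, such as macrophage markers, at 1906 CPM in the first and 190 in the second. Quiescent stellate cell and sinusoidal endothelial markers did not. These 2 libraries are also absent from the study's per-liver source data for a single figure panel, on target genes of the bile acid receptor FXR. That panel was the only one matched here, and its data give no reason. The legend of the study's expression heatmap gives n = 8, so whether the authors left these libraries out elsewhere is not known. Whether labels or samples were exchanged was not tested. The values below therefore come from the other 46 livers (7 DN:WT, 7 DN:HOM and 8 in each other group), with values over all 48 livers beside the main results.

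Collagens are secreted proteins of 3 chains wound into a triple helix, and their genes fall into families by the structure that the helix builds. Fibrillar collagens such as types I, III and V form the cross-striated fibrils that accumulate in scarred liver, where stellate cells and portal fibroblasts are their known sources. Type IV collagen forms the sheet of basement membranes, and types XV and XVIII are proteoglycan collagens of basement membrane zones. Type VI collagen forms beaded filaments, and the fibril-associated collagens decorate the surface of fibrils. By these classes the 44 genes comprised 11 fibrillar, 8 basement membrane and 25 other collagens. Of the 44, 32 had enough reads to be tested and 12 did not. Col10a1, the collagen of growth plate cartilage, had 1 read in the 48 livers together, Col19a1 1, Col26a1 2, Col11a1 4, Col9a1 8 and Col2a1, the main collagen of cartilage, 10. Col9a2 had 26 reads in all, Col17a1 28, Col6a4 39, Col22a1 39, Col28a1 118 and Col8a2 263.

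The stretch around the annotated start is shown for chains of types I and III (Col1a1, Col1a2 and Col3a1), for Col4a6, which had the largest fitted rise, and for 2 of the members that fell (Col18a1 and Col27a1). Each runs 5′ to 3′ on the strand of its gene in GRCm39, with 120 bases before the start of the canonical transcript in GENCODE M39 and 30 from the start base on. Capitals mark exact matches, on either strand, of the letters CCAAT (the CCAAT box), the letters TATAAA (the TATA box) or the letters GGGCGG (the GC box). No match printed here overlaps another.
Col1a1 (chr11:94826930-94827079, plus strand): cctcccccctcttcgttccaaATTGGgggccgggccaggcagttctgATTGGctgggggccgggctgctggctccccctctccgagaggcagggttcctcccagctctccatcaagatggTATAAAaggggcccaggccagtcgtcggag
Col1a2 (chr6:4505373-4505522, plus strand): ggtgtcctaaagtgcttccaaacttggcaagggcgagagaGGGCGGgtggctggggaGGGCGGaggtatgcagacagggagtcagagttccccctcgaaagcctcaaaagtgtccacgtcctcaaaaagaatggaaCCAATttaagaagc
Col3a1 (chr1:45350578-45350727, plus strand): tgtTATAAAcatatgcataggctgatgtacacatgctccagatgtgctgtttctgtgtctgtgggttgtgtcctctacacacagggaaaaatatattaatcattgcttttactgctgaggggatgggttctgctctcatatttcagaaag
Col4a6 (chrX:140257043-140257192, minus strand): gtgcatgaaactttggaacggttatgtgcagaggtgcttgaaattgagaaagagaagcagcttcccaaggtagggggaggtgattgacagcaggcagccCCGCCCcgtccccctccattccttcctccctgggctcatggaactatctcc
Col18a1 (chr10:76949751-76949900, minus strand): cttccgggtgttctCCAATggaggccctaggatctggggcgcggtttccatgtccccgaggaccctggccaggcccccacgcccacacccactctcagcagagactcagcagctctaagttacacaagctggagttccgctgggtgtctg
Col27a1 (chr4:63133552-63133701, plus strand): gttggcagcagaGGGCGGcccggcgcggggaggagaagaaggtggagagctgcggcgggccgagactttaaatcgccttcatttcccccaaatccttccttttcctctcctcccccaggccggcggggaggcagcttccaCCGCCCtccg
Col1a1 holds 2 inverted CCAAT boxes, 99 and 73 bases before the annotated start, and a TATA box that begins at it, and Col1a2 holds 2 GC boxes, 80 and 63 bases before, and a CCAAT box. The TATA box of Col3a1 lies 117 bases before its annotated start, and Col4a6 holds a single inverted GC box 21 bases before. Col18a1 holds a CCAAT box and Col27a1 holds a GC box on each strand. In the 250 bases before the start and the 30 from it on, CCAAT occurred in 17 of the 44 collagen genes (38.6%) and in 38.9% of all 21627 protein-coding genes. TATAAA occurred in 8 (18.2%) against 12.8%, and GGGCGG in 22 of the 44 against 40.8%. These matches are a description of letters and are not evidence of binding. Several members are genomic neighbours. Col3a1 (chr1:45350698-45395840) and Col5a2 (chr1:45412554-45542442) are tail to tail on chromosome 1 with 16713 bases between them, and Col4a6 (chrX:139948399-140257072) and Col4a5 (chrX:140258354-140472231) are head to head on the X chromosome with 1281 bases between them. Col4a4 and Col4a3, and Col4a1 and Col4a2, are head-to-head pairs whose first exons overlap on opposite strands. Reads were counted by strand, so the partners of these pairs were counted apart. A predicted microRNA gene covers 141 exonic bases of Col3a1 on its own strand, where reads could count for neither.

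In DN:HOM livers, most of the collagens tested were higher than in DN:WT, and 5 were lower, 4 of them fibrillar or basement membrane chains. Of the 32 collagens tested, 21 were higher and 5 lower, with a median log2 fold change of 1.43. Over all 15711 genes tested, 29.1% were called higher and 30% lower, with a median of -0.01, so the rises exceeded the background and the falls did not. Over all 48 livers 20 were higher and 5 lower, where 48% of the genes tested were called in either direction. All 8 basement membrane collagens changed (7 higher, 1 lower, median 2.05), as did 8 of 9 fibrillar collagens (5 higher, 3 lower, median 1.26). Of the 15 others, 9 were higher and 1 lower, with a median of 0.57. The read filter can admit a rare gene through the group where it is high, which fixes part of a count of rises. Col4a6 entered this way, since no other liver of the 46 (at most 0.488 CPM) reached the lowest DN:HOM liver (0.541). Col6a5, at most 0.405 CPM in DN:WT and at least 0.672 in DN:HOM, may have done so. The medians were smaller over all 48 livers, at 1.06 for the 32 collagens, 1.27 for basement membrane, 0.89 for fibrillar and 0.56 for the other collagens. Calls are those of edgeR's quasi-likelihood test at a Benjamini-Hochberg adjusted p under 0.05, and log2 fold changes are given with their SE. In bulk tissue, fewer cells of a type and less RNA per cell cannot be told apart.

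**Figure D1:**
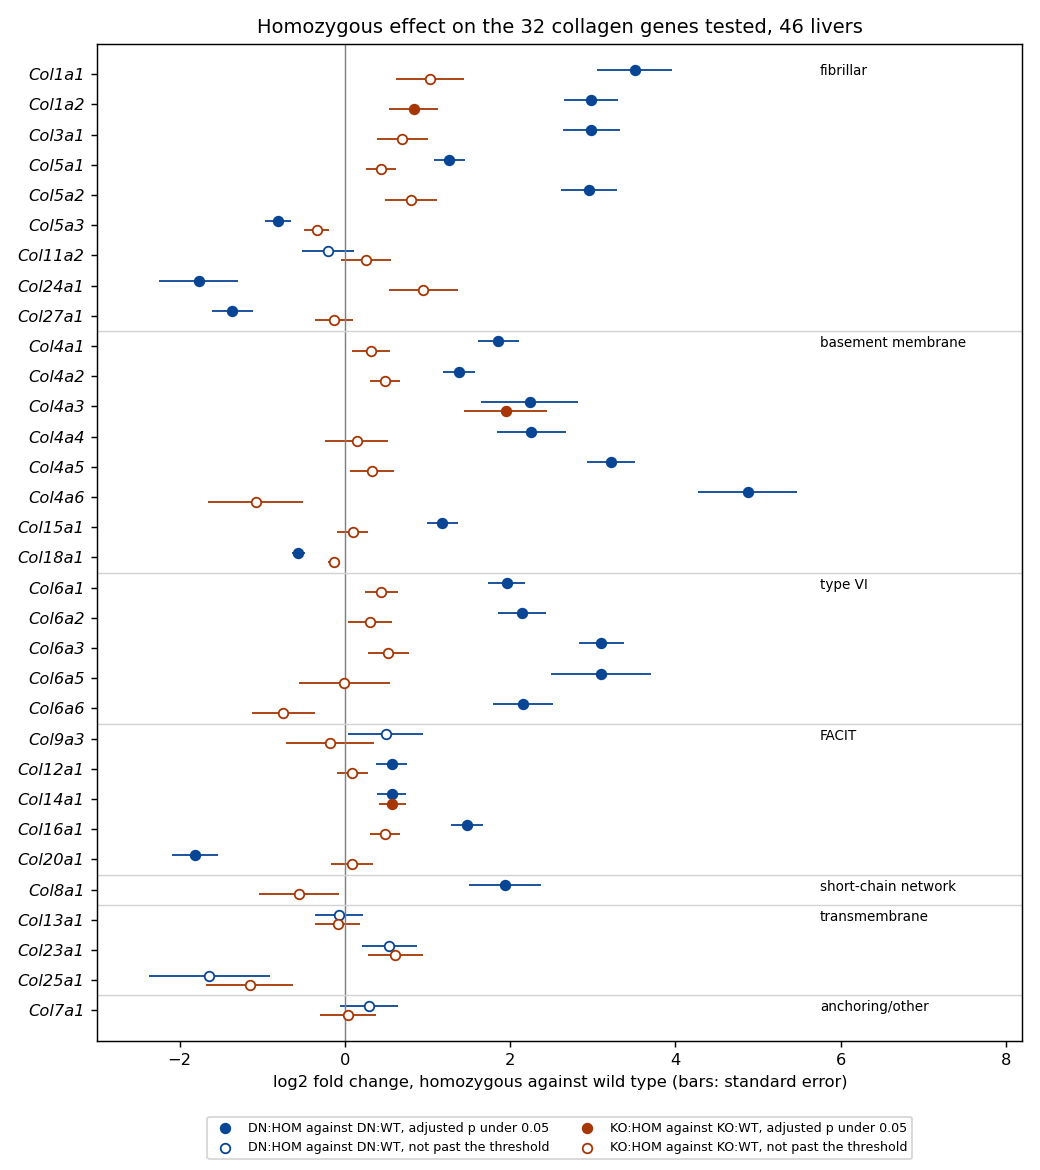
Log2 fold change of each of the 32 collagen genes tested in homozygous against wild-type livers, by class, in the knock-in (blue) and the knockout study (orange). Points are estimates from 46 livers, bars are 1 SE, and filled points passed an adjusted p of 0.05. Of the knock-in values 26 passed, up to 4.87 for Col4a6, which the read filter admitted through DN:HOM, and of the knockout values 3.

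Col1a1 and Col1a2 encode the 2 chains of type I collagen, the main fibril of scar. Col1a1 ranged from 7.84 to 17.7 CPM in DN:WT (median 9.03) and from 100 to 145 in DN:HOM (median 127). It rose by 3.50 on the log2 scale (SE 0.46, adjusted p = 1.1e-08; all 48 livers, 2.01, adjusted p = 0.0031). The groups did not overlap among the 46 livers and overlapped over all 48. Since the 2 libraries stood apart in collagen genes themselves, a lack of overlap among the 46 livers, here and for other members, is a description that their absence helps to fix, and each collagen described that way overlapped over all 48. The sizes and p-values from the 46 livers rest on the same choice of livers and are read beside those from all 48. Col1a2 ranged from 12.4 to 25.4 CPM in DN:WT (median 16.7) and from 110 to 147 in DN:HOM (median 138), a rise of 2.97 (SE 0.33, adjusted p = 2.1e-10; all 48, 1.83, adjusted p = 0.00075). Per length of transcript the chains moved unequally. The ratio of Col1a1 to Col1a2 in CPM per kb was 1.25 ± 0.163 (SD, n = 7) in DN:WT and 1.83 ± 0.143 in DN:HOM, and its ranges (1.04 to 1.53 and 1.70 to 2.04) did not overlap.

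Type III collagen, a homotrimer found with type I in reticular fibres, moved with type I. Col3a1 ranged from 27.7 to 62.0 CPM in DN:WT (median 35.7) and from 245 to 363 in DN:HOM (median 321), with 376 in the library labelled DN:WT animal 10 and 43.1 in that labelled DN:HOM animal 12. The rise was 2.98 (SE 0.35, adjusted p = 7.6e-10; all 48, 1.75, adjusted p = 0.0018). Type V collagen sits inside type I fibrils and sets their diameter. Its Col5a2 chain was at 2.0 to 5.71 CPM in DN:WT (median 3.64) and 21.4 to 33.4 in DN:HOM (median 26.5), a rise of 2.95 (SE 0.34, adjusted p = 5.2e-10; all 48, 1.85, adjusted p = 0.00068). Col5a1, its partner chain, rose less, by 1.26 (SE 0.19, adjusted p = 2.4e-07; all 48, 0.89, adjusted p = 0.0012), from a mean of 9.45 ± 1.1 CPM to 22.4 ± 3.1.

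**Figure D2:**
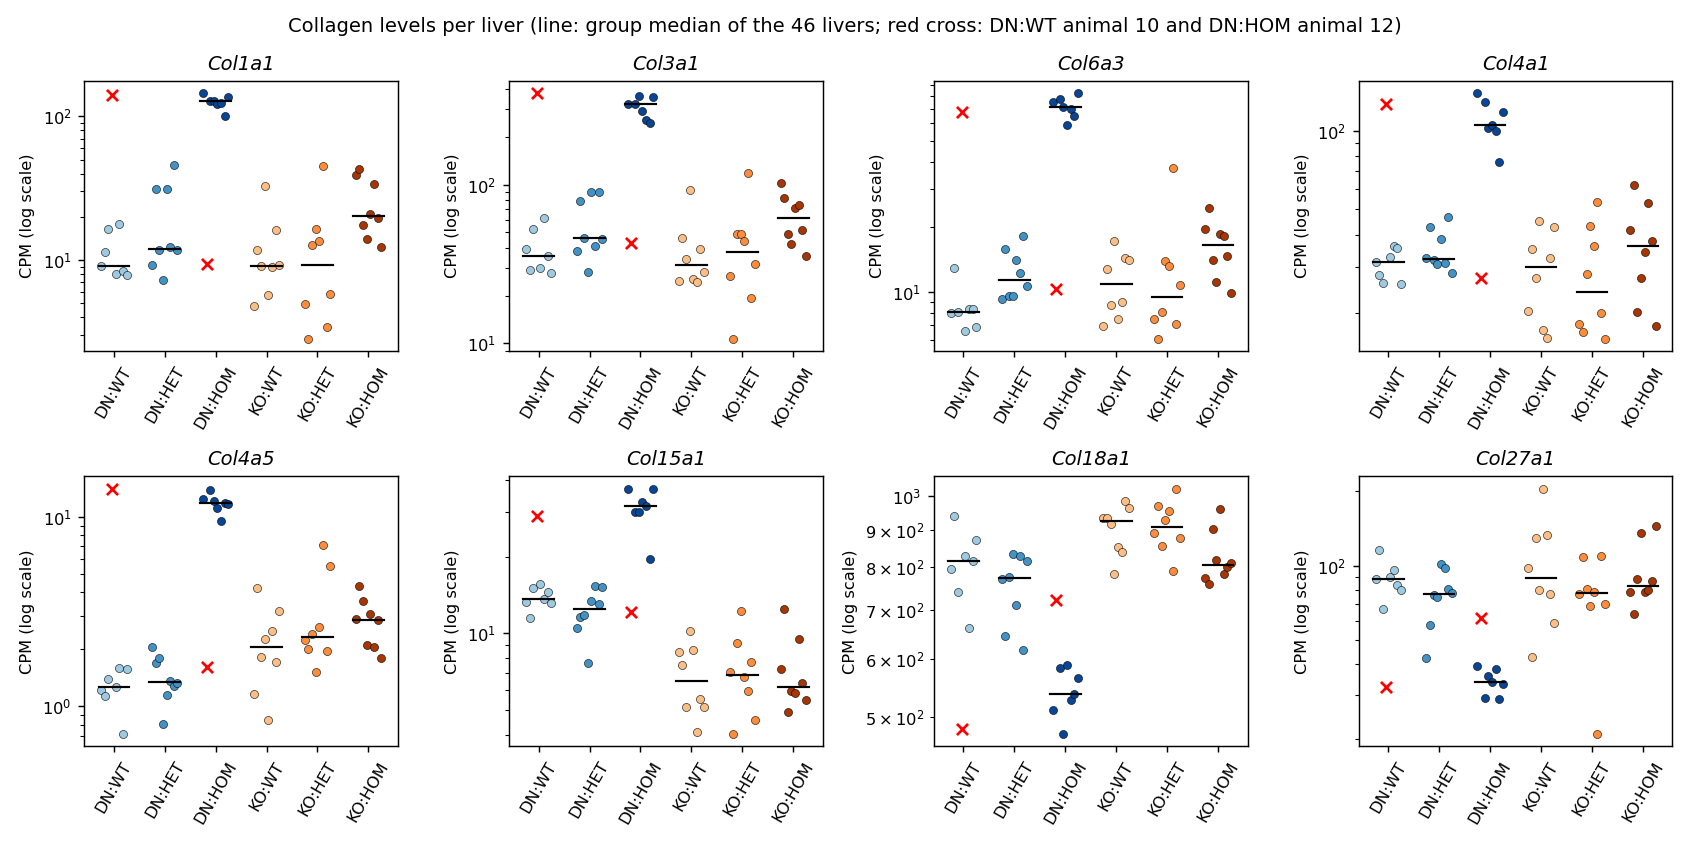
CPM of 8 collagen genes in each liver on a log axis, by genotype group. Points are livers, lines are medians of the 46 livers, and red crosses are the libraries labelled DN:WT animal 10 and DN:HOM animal 12. The DN:HOM points lie apart from DN:WT in each panel, at 100 to 145 CPM against 7.84 to 17.7 for Col1a1, above for 6 genes and below for Col18a1 and Col27a1.

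The other 3 fibrillar chains that passed the test fell. Col5a3, a chain of type V collagen in some tissues, was the most abundant fibrillar chain per length in DN:WT, at 18.2 CPM per kb against 3.83 for Col3a1 and 1.71 for Col1a1. It ranged from 86.9 to 155 CPM in DN:WT (median 141) and from 48.6 to 114 in DN:HOM (median 66.7). The groups overlapped, through DN:HOM animal 31, and the fall was -0.82 (SE 0.16, adjusted p = 1.9e-05; all 48, -0.63, adjusted p = 0.0019). Col27a1, a fibrillar collagen known from cartilage, ranged from 67.1 to 116 CPM in DN:WT (median 88.7) and from 28.9 to 39.4 in DN:HOM (median 33.9). The fall was -1.36 (SE 0.25, adjusted p = 1e-05; all 48, -1.12, adjusted p = 0.00059), and no DN:HOM liver of the 46 reached the lowest DN:WT liver. Col24a1, a rare fibrillar chain known from bone, fell by 1.77 (SE 0.48, adjusted p = 0.0014; all 48, -1.45, adjusted p = 0.012) on few reads, 49 in 7 DN:WT livers and 20 in 7 DN:HOM livers, and had too few to be tested with the compared groups only, with each study alone or at a mean CPM of at least 1. Col11a2, which pairs with the other chains of type XI collagen, did not pass (-0.21, adjusted p = 0.59).

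The type IV chains rose in all 3 genomic pairs. Col4a1 and Col4a2 make the common α1α1α2 trimer of basement membranes, α3 to α5 that of the kidney glomerulus, and α5 and α6 are found together in another trimer. Col4a1 ranged from 25.8 to 36.2 CPM in DN:WT (median 31.3) and from 76.2 to 140 in DN:HOM (median 106), a rise of 1.85 (SE 0.25, adjusted p = 1.9e-08; all 48, 1.22, adjusted p = 0.0013). Col4a2 went from 22.1 ± 2.8 CPM to 57.1 ± 8.6, a rise of 1.38 (SE 0.19, adjusted p = 6.3e-08; all 48, 0.98, adjusted p = 0.00075). Col4a5 ranged from 0.714 to 1.60 CPM in DN:WT (median 1.26) and from 9.57 to 13.8 in DN:HOM (median 11.9). Its rise of 3.22 (SE 0.29, adjusted p = 9.4e-13; all 48, 1.84, adjusted p = 0.00063) was larger than those of Col4a1 and Col4a2. That difference between the genes was not tested.

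Col4a6, the head-to-head neighbour of Col4a5, was near its floor in DN:WT. It had 4 reads in the 7 DN:WT livers together, with 4 livers at 0, and 206 reads in the 7 DN:HOM livers, where it ranged from 0.541 to 1.99 CPM. The fitted rise was 4.87 (SE 0.60, adjusted p = 3e-09; all 48, 2.44, adjusted p = 0.00096), and its size rests on those 4 reads. Col4a3 had 21 reads in DN:WT and 148 in DN:HOM, with overlapping groups (2.24, SE 0.59, adjusted p = 0.0011; all 48, 1.31, adjusted p = 0.047). Col4a4 had 32 and 227 reads, and no DN:HOM liver of the 46 lay below the highest DN:WT liver (2.25, SE 0.42, adjusted p = 1.1e-05; all 48, 1.60, adjusted p = 0.0026).

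Types XV and XVIII moved apart. Both are close relatives whose C-terminal fragments, endostatin for type XVIII, are known to restrain blood vessel growth. Col15a1 ranged from 11.5 to 15.7 CPM in DN:WT (median 13.6) and from 19.6 to 37.0 in DN:HOM (median 31.5), a rise of 1.18 (SE 0.19, adjusted p = 1e-06; all 48, 0.87, adjusted p = 0.0011). Col18a1, which hepatocytes are known to make, was the most abundant collagen messenger RNA of these livers per length, at 114 CPM per kb in DN:WT. It ranged from 660 to 939 CPM in DN:WT (median 816) and from 474 to 590 in DN:HOM (median 539), with 482 in the library labelled DN:WT animal 10 and 723 in that labelled DN:HOM animal 12. The fall was -0.56 (SE 0.08, adjusted p = 1.8e-08; all 48, -0.44, adjusted p = 0.00019), and the 46 livers did not overlap.

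All 5 type VI chains tested rose in DN:HOM. Col6a3, the chain that carries the endotrophin fragment, ranged from 6.59 to 12.8 CPM in DN:WT (median 8.08) and from 59.1 to 82.8 in DN:HOM (median 71.9). The rise was 3.10 (SE 0.27, adjusted p = 4.8e-13; all 48, 2.0, adjusted p = 0.00012). Its partner chains Col6a1 (1.96, SE 0.22, adjusted p = 3.3e-10; all 48, 1.29) and Col6a2 (2.14, SE 0.29, adjusted p = 2.6e-08; all 48, 1.46) rose as well. Col6a1 ranged from 5.06 to 11.1 CPM in DN:WT and from 27 to 33.1 in DN:HOM, and Col6a2 went from 4.23 ± 1.1 to 18.6 ± 2.5. Col6a5 and Col6a6, alternatives to the third chain, rose on few reads, from 16 to 211 reads (3.10, adjusted p = 2.4e-05; all 48, 1.92) and from 39 to 259 reads (2.16, adjusted p = 2.2e-06; all 48, 1.30). The Col6a6 groups overlapped.

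Among the fibril-associated collagens, 3 rose and 1 fell. Col16a1 went from 3.69 ± 0.60 CPM in DN:WT to 10.2 ± 1.7 in DN:HOM (1.47, SE 0.19, adjusted p = 1.3e-08; all 48, 1.15). Col12a1 went from 5.26 ± 0.52 to 7.73 ± 1.1 CPM (0.57, adjusted p = 0.0098; all 48, 0.49, adjusted p = 0.024). Col14a1, the most abundant of them per length (6.51 CPM per kb in DN:WT), went from 45.7 ± 4.9 to 67.0 ± 11 CPM. Its rise of 0.57 (SE 0.18, adjusted p = 0.0054) was lost with all 48 livers (0.40, adjusted p = 0.054). Col20a1 fell from 224 to 92 reads (-1.82, SE 0.28, adjusted p = 3.6e-07; all 48, -1.38, adjusted p = 0.00039), and Col9a3 did not pass (0.49, adjusted p = 0.37). Another annotated gene overlaps 91 exonic bases of Col20a1 on the same strand, and reads there could count for neither.

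Of the short-chain network collagens, Col8a1, known from vessel walls, rose from 65 to 369 reads (1.94, SE 0.43, adjusted p = 0.00018; all 48, 1.42, adjusted p = 0.0068). None of the 3 transmembrane collagens tested passed: Col13a1 was at -0.07 (adjusted p = 0.84), Col23a1 at 0.54 (adjusted p = 0.17) and Col25a1 at -1.64 (adjusted p = 0.051). Col7a1, the anchoring fibril of skin, was at 0.29 (adjusted p = 0.49). Col25a1 was called lower by DESeq2 and by the fit without KO:WT animal 23, an alternative chosen after seeing the data.

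The make-up of the collagen messenger RNA differed between DN:WT and DN:HOM livers. As a share of the summed collagen CPM per kb, Col18a1 made 67.8 ± 3.17% (SD, n = 7) in DN:WT and 36.7 ± 3.08% in DN:HOM, and types I and III together 4.20% and 28.5%. The shares in the library labelled DN:WT animal 10 were 32.1% and 32.7%, and in that labelled DN:HOM animal 12 they were 67.1% and 4.60%. All fibrillar collagens together made 19.9 ± 2.04% in DN:WT, 22.4 ± 4.74% in DN:HET and 37.1 ± 2.52% in DN:HOM. Over all 48 livers these became 22.6% in DN:WT and 34.9% in DN:HOM, and types I and III together 7.76% and 25.5%. As a share of the summed collagen CPM per kb, the fibrillar chain Col5a3 made 10.7% in DN:WT and 4.91% in DN:HOM (n = 7 each). The fibrillar chain Col27a1 went from 4.04% to 1.26% of that sum. Type IV went from 4.41% to 11.6% and type VI from 1.48% to 6.25%. The summed level was 168 ± 13.7 CPM per kb in DN:WT and 209 ± 14.1 in DN:HOM, and without Col18a1 it was 54.1 and 133. In the knockout study the Col18a1 share was 74.2 ± 4.30% in KO:WT, 73.7 ± 6.00% in KO:HET and 68.2 ± 5.39% in KO:HOM, and that of types I and III was 4.18%, 4.44% and 7.32%. These shares are descriptions without a test and use the summed exon length of each gene.

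**Figure D3:**
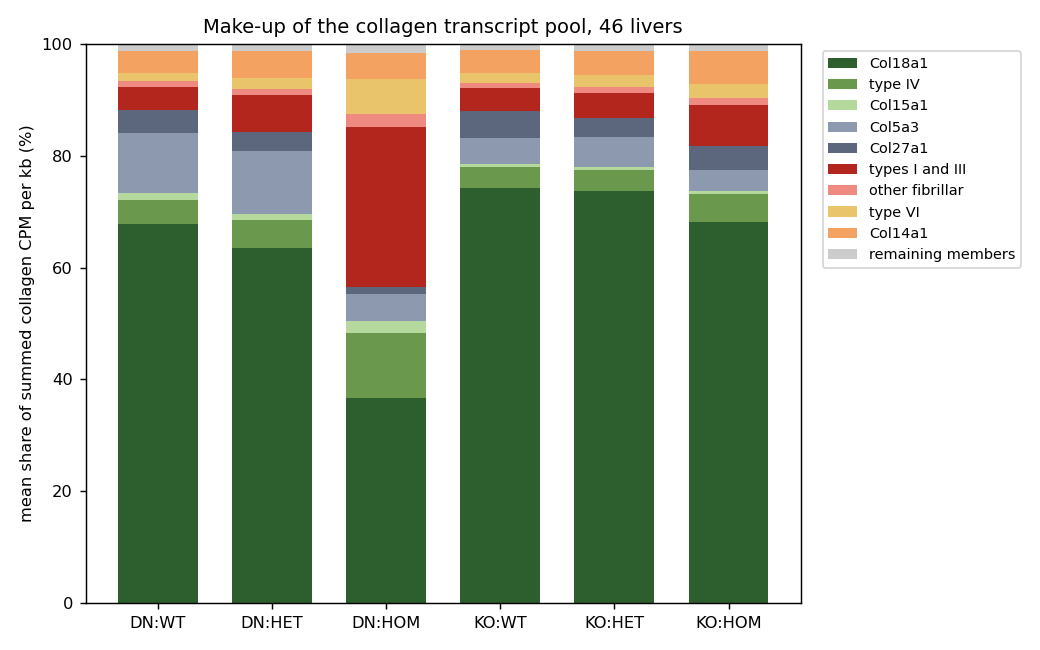
Mean share, in percent, of the summed collagen CPM per kb taken by Col18a1, other single genes and classes in each of the 6 genotype groups (stacked bars, 46 livers). Col18a1 takes 67.8% in DN:WT and 36.7% in DN:HOM, while types I and III go from 4.20% to 28.5%.

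In the knockout study, homozygous livers showed 3 higher and 0 lower collagens of the 32 tested, where 11.5% of all genes were higher and 7.87% lower. The share of collagens called was thus not above the background. Col14a1 ranged from 29.6 to 76.8 CPM in KO:WT (median 43.6) and from 53.8 to 96.3 in KO:HOM (median 61.9), overlapping groups with a rise of 0.57 (SE 0.16, adjusted p = 0.01; all 48, adjusted p = 0.02). Col4a3 had 44 reads in KO:WT and 178 in KO:HOM (1.95, SE 0.50, adjusted p = 0.0043; all 48, adjusted p = 0.014), and KO:HOM animals 11 and 22 were the highest, at 3.30 and 3.40 CPM. Col1a2 ranged from 12 to 46.1 CPM in KO:WT (median 16.1) and from 18.5 to 53.8 in KO:HOM (median 30.5), a rise of 0.83 (SE 0.29, adjusted p = 0.039). With all 48 livers the Col1a2 call was lost (adjusted p = 0.21), which left 2 collagens, against 12.9% of all genes. With each study fitted alone, Col14a1 (adjusted p = 0.052) and Col1a2 (adjusted p = 0.079) lost their calls, and Col1a2 also did without a low-count filter (adjusted p = 0.057). Col4a3 had too few reads to be tested at a mean CPM of at least 1 and with the compared groups only. The 2 libraries left out are not in this comparison and act through the estimate of spread that the 6 groups share.

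The other fibrillar chains had positive values in KO:HOM that did not pass, Col1a1 at 1.03 (SE 0.41, adjusted p = 0.068), Col5a2 at 0.79 (adjusted p = 0.07) and Col3a1 at 0.69 (adjusted p = 0.11). Of the 32 collagens, 14 had an unadjusted p under 0.05, as did 31.6% of all genes. A single control liver bears on these calls. Col1a1 was at 4.75 to 16.1 CPM in 7 KO:WT livers, at 32.7 in KO:WT animal 23, and at 12.2 to 43.3 (median 20.4) in KO:HOM. KO:WT animal 23 was the highest of its group in 16 of the 32 collagens tested. Without it, an alternative chosen after seeing the data, 10 collagens were higher and 1 lower, where 13% and 9.4% of all genes were, with Col1a1 at 1.42 (adjusted p = 0.0094) and Col3a1 at 1.0 (adjusted p = 0.012). Col18a1 ranged from 784 to 984 CPM in KO:WT and from 758 to 962 in KO:HOM (-0.13, SE 0.07, adjusted p = 0.19).

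The difference between the homozygous effects of the studies was itself tested, as the knock-in minus the knockout log2 fold change. It passed for 18 collagens in the positive and 4 in the negative direction, with a median of 0.94 (all 48, 0.59), where 16.5% and 18.3% of all genes passed. By class, 5 fibrillar, 6 basement membrane and 7 other collagens were positive. The difference was 5.96 for Col4a6 (SE 0.87, adjusted p = 6.2e-07), which the read filter admitted through DN:HOM. It was 2.90 for Col4a5 (SE 0.39, adjusted p = 1.3e-07), 2.58 for Col6a3 (SE 0.36, adjusted p = 2.7e-07) and 2.48 for Col1a1 (SE 0.59, adjusted p = 0.00098). It was negative for Col24a1 (-2.72, adjusted p = 0.0007), Col20a1 (-1.91, adjusted p = 9.3e-05), Col27a1 (-1.23, adjusted p = 0.0039) and Col18a1 (-0.43, adjusted p = 0.00091). Col14a1, which rose by 0.57 in both, had a difference of -0.01 (SE 0.24, adjusted p = 0.98), with a positive sign under 3 other settings of tool or scaling. This comparison depended strongly on the libraries labelled DN:WT animal 10 and DN:HOM animal 12. Over all 48 livers, 4 collagens passed, Col4a6 and Col6a6 positive and Col20a1 and Col24a1 negative, where 10.5% of all genes passed. That share of collagens was near the background, and Col1a1 did not pass (0.98, adjusted p = 0.43).

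In DN:HET no collagen passed against DN:WT, where 2.3% of all genes did. In KO:HET no collagen passed against KO:WT, where 0.0191% of all genes did. At these backgrounds a count of 0 among 32 collagens is not a result about them. DESeq2 also called 0 collagens in each of these comparisons. DN:HET livers were uneven. Col1a1 was at 7.20 to 12.2 CPM in 5 of them and at 31.3, 31.3 and 45.7 in animals 4, 16 and 22, above every DN:WT liver of the 46. These 3 livers, picked out after their values were seen, held the 3 highest DN:HET levels in 10 of the 32 collagens tested, among them Col1a2, Col3a1, Col4a1, Col5a1, Col5a2 and Col6a3. The fitted Col1a1 value of 0.84 (adjusted p = 0.4) became -0.47 with all 48 livers, where the library labelled DN:WT animal 10 enters the control mean. In KO:HET, animal 9 was the highest in 14 of the 32 collagens, with Col1a1 at 45.3 CPM against 2.82 to 16.6 in the other 7. Summed cell type markers were uneven in heterozygous livers as well. Macrophage markers reached from 223 to 2444 CPM in DN:HET (median 440, against 245 in DN:WT), the top above every DN:HOM liver of the 46, and from 128 to 631 in KO:HET. Myofibroblast markers were at 94.0 to 385 CPM in DN:HET and 68.3 to 163 in KO:HET, and the part of either cell type in the uneven collagen levels was not tested.

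Against heterozygous livers, DN:HOM had 20 higher and 7 lower collagens, where 53.9% of all genes passed in either direction. Col1a1 was higher by 2.67 (SE 0.41, adjusted p = 5.9e-07; all 48, 2.48), Col4a5 by 3.04 (SE 0.27, adjusted p = 9.2e-13; all 48, 2.87) and Col6a3 by 2.55 (SE 0.25, adjusted p = 1.5e-11; all 48, 2.37). The DN:HOM livers are shared with the comparison against DN:WT, so the comparisons are not independent. Col11a2 (-0.98, adjusted p = 0.0049) and Col25a1 (-1.74, adjusted p = 0.034) were lower here and had not passed against DN:WT, and Col14a1 did not pass here (0.27, adjusted p = 0.18). Col14a1 passed with the compared groups only (0.29, adjusted p = 0.014) and with each study alone (0.29, adjusted p = 0.0095). Col25a1 had too few reads to be tested in those fits and lost its call without a low-count filter (-1.73, adjusted p = 0.051). In the knockout study Col4a3 was higher (1.47, adjusted p = 0.047) and Col5a3 lower (-0.57, adjusted p = 0.0098) in KO:HOM than in KO:HET, where 10.6% of all genes passed. The share of collagens called there was not above that background. Col4a3 did not pass with all 48 livers (adjusted p = 0.12), without a low-count filter (adjusted p = 0.086) or with each study alone (adjusted p = 0.075). Without KO:HET animal 9, chosen after seeing the data, 8 were higher and 1 lower, where 9.05% and 4.24% of all genes were.

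The wild-type livers of the studies differed in 5 collagens, where 12% of all genes passed. The share of collagens called was near that background, so the count is not a result about them. Col5a3 was at 125 ± 28 CPM in DN:WT and 55.2 ± 10 in KO:WT (1.18, adjusted p = 1.1e-06), Col15a1 at 13.8 ± 1.4 and 6.84 ± 2.2 (1.01, adjusted p = 0.00027), and Col12a1 at 5.26 ± 0.52 and 3.16 ± 1.5 (0.72, adjusted p = 0.0088). Col4a6 (-2.39, adjusted p = 0.023) and Col25a1 (-1.85, adjusted p = 0.029) were lower in DN:WT. Col4a6 had 28 reads in 8 KO:WT livers against 4 in 7 DN:WT livers, and both wild-type groups enter its difference between the homozygous effects. With all 48 livers Col5a3 (1.10, adjusted p = 1.1e-05), Col15a1 (1.2, adjusted p = 0.00017), Col12a1 (0.79, adjusted p = 0.0035) and Col25a1 (-2.05, adjusted p = 0.015) kept their calls. Col4a6 lost its call (-0.10, adjusted p = 0.95), and Col4a2 was called higher in DN:WT (0.71, adjusted p = 0.035). Col4a6 and Col25a1 had too few reads to be tested with the compared groups only, and Col25a1 lost its call without a low-count filter (-1.84, adjusted p = 0.051).

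Genes that fold, cut, link and bind collagen were counted by list in DN:HOM against DN:WT. Beside the 29.1% of all genes called higher and 30% lower, of 17 tested genes of collagen folding and hydroxylation, 9 rose and 4 fell (median 0.32). Over all 48 livers 8 rose and 4 fell (median 0.18). The summed level of that list was 2153 to 2460 CPM in DN:WT and 1861 to 2014 in DN:HOM, most of it P4hb, which was at 1534 to 1864 CPM in DN:WT and 1161 to 1294 in DN:HOM. P4hb was at 1272 CPM in the library labelled DN:WT animal 10 and 1779 in that labelled DN:HOM animal 12. Without P4hb the sum was 569 to 672 CPM in DN:WT and 650 to 721 in DN:HOM, and the groups overlapped. Serpinh1, the collagen chaperone HSP47, rose by 1.98 (adjusted p = 1.3e-08) and Plod2, a lysyl hydroxylase, by 2.69 (adjusted p = 1.1e-11). P4hb, the shared subunit of prolyl hydroxylase and a general disulfide isomerase, fell by 0.41 (adjusted p = 1.6e-06) and Colgalt2, a collagen galactosyltransferase, by 1.09 (adjusted p = 0.027). Of 10 genes of procollagen cleavage and crosslinking, 8 rose and 2 fell (median 1.67). The crosslinking oxidases Lox (3.28, adjusted p = 1.1e-07) and Loxl1 (3.26, adjusted p = 6.1e-12) rose. Bmp1, the procollagen C-proteinase (-0.47, adjusted p = 0.00085), and Pcolce2, an enhancer of it (-5.18, adjusted p = 6.1e-12), fell. Pcolce2 went from a mean of 2.01 CPM in DN:WT to 0.0458 in DN:HOM, near its floor, so the size of its fall is uncertain. Pcolce, the more abundant enhancer (mean of 10.3 CPM over the 46 livers against 1.11 for Pcolce2), was among the genes that rose.

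Of 8 collagen receptors, 6 rose and 0 fell (median 1.33), with the integrin chain Itga2 at 4.69 (adjusted p = 1.1e-07) and the receptor kinase Ddr2 at 0.92 (adjusted p = 4.4e-05). Of 7 small proteoglycans of fibrils, 5 rose and 0 fell (median 1.12), Lum at 3.85 (adjusted p = 5.9e-16). Of 16 laminins and other basement membrane proteins, 12 rose and 3 fell (median 1.04), with Lama1 at -1.29 (adjusted p = 3.8e-06). All 14 TGF-beta and PDGF signal genes rose (median 1.62; all 48, 13 of 14, median 1.12), Tgfb1 by 1.69 (adjusted p = 6.7e-08) and Tgfb2 by 3.50. The handling genes named for DN:HOM kept their direction and call with all 48 livers, at smaller sizes such as 1.34 for Serpinh1 (adjusted p = 0.00076), 1.78 for Lox (adjusted p = 0.0073), -0.97 for Colgalt2 (adjusted p = 0.043), -3.07 for Pcolce2 (adjusted p = 7.8e-05) and 1.2 for Tgfb1 (adjusted p = 0.00068).

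In KO:HOM the same lists are read beside the 11.5% of all genes called higher and 7.87% lower. Of the 17 genes of folding and hydroxylation 0 passed (median -0.04), with Serpinh1 at 0.39 (adjusted p = 0.28). Of the 10 cleavage and crosslinking genes 2 rose and 2 fell, Loxl1 at 0.80 (adjusted p = 0.045; all 48, adjusted p = 0.25), Pcolce2 at -2.84 (adjusted p = 4e-06) and Bmp1 at -0.37 (adjusted p = 0.016). Lox was at 0.58 (adjusted p = 0.43). Of the 8 receptors 4 rose, the leukocyte collagen receptor Lair1 by 2.12 (adjusted p = 5.3e-05) and Ddr2 by 0.73 (adjusted p = 0.0025). Of the 7 small proteoglycans 4 rose, Lum by 1.05 (adjusted p = 0.0013; all 48, adjusted p = 0.17) and Dcn by 0.62 (adjusted p = 0.0011). Of the 14 signal genes 7 rose, Tgfb1 by 1.08 (adjusted p = 0.00045) and Pdgfb by 1.44 (adjusted p = 0.00042). Of the 16 laminins and other basement membrane proteins 2 rose, a share near the background. Lama1 rose by 0.77 (adjusted p = 0.0052), opposite to its fall in DN:HOM, and the difference of -2.06 passed (adjusted p = 8.1e-07; all 48, adjusted p = 0.0045).

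**Figure D4:**
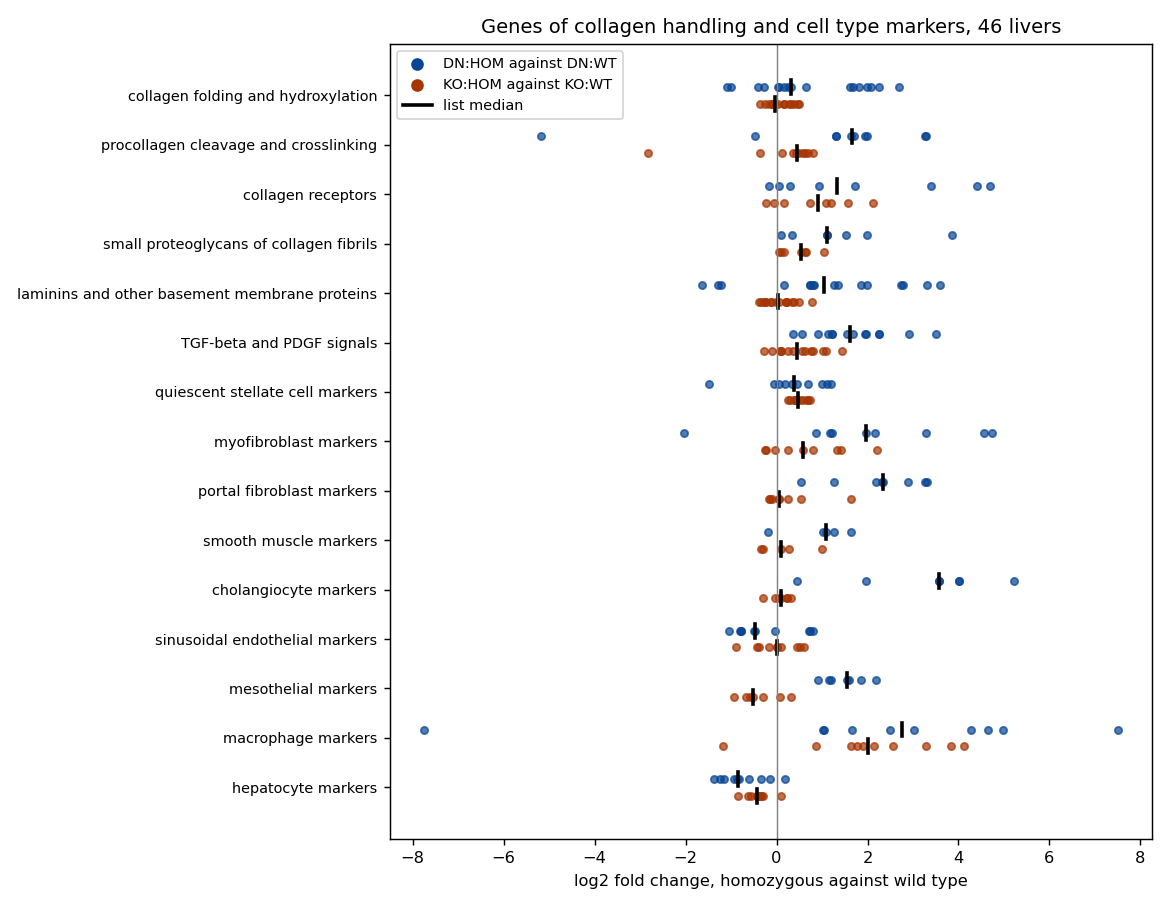
Log2 fold change in homozygous against wild-type livers for each tested gene of 15 lists, genes of collagen handling and cell type markers, in the knock-in study (blue) and the knockout study (orange), with the list median as a bar (46 livers). The medians of the cholangiocyte markers are 3.58 (2.27 over all 48 livers) in the knock-in and 0.11 in the knockout study, and those of the TGF-beta and PDGF signal genes 1.62 and 0.46.

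Markers of several cell types moved with the collagens, and their counts stand beside the same background of 29.1% higher and 30% lower in DN:HOM and 11.5% and 7.87% in KO:HOM. The summed level of 10 myofibroblast markers, of which Spp1 was the most abundant and is also made by macrophages and bile duct cells, ranged from 79.5 to 150 CPM in DN:WT and from 802 to 1207 in DN:HOM, with 1281 in the library labelled DN:WT animal 10 and 102 in that labelled DN:HOM animal 12. In KO:WT it ranged from 67.9 to 172 CPM and in KO:HOM from 88.5 to 291. Of the 9 tested, 8 were higher and 1 lower in DN:HOM, and 4 were higher in KO:HOM. Acta2, the smooth muscle actin that marks activated stellate cells, was at 1.17 (adjusted p = 0.0044) in DN:HOM and -0.03 (adjusted p = 0.96) in KO:HOM, and Timp1 at 4.73 (adjusted p = 1.7e-09) and 2.21 (adjusted p = 0.0046; all 48, adjusted p = 0.068). The Timp1 difference between the homozygous effects was 2.53 over 46 livers (adjusted p = 0.017) and 0.14 over all 48 (adjusted p = 0.91). Tpm2, a tropomyosin, was the marker that fell (-2.04, adjusted p = 1.3e-10). Portal fibroblast markers were at 13.5 to 17.9 CPM in DN:WT and 72.5 to 134 in DN:HOM (7 of 8 higher), and at 11.6 to 41.9 in KO:WT and 18.1 to 28 in KO:HOM (1 of 8 higher, near the background). They were at 90.2 CPM in the library labelled DN:WT animal 10 and 16.4 in that labelled DN:HOM animal 12. Quiescent stellate cell markers overlapped, at 213 to 247 CPM in DN:WT and 190 to 282 in DN:HOM (5 of 10 higher, 1 lower). Ecm1 was the most abundant gene of that sum, at a mean of 88.0 CPM over the 46 livers. Its difference between the homozygous effects was -1.73 (adjusted p = 1.1e-09; all 48, -1.37, adjusted p = 0.0021). In the knockout study the quiescent markers were at 171 to 277 CPM in KO:WT (median 225) and 241 to 363 in KO:HOM (median 263), with 7 of 10 higher over 46 livers and 3 of 10 over 48, beside the higher Col14a1 and Col1a2. Some of these markers are themselves matrix genes made by the same cells as fibrillar collagen, so the lists are not independent of it.

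Cholangiocyte markers, of bile duct cells that lie on a basement membrane, were at 19.1 to 30.6 CPM in DN:WT and 75.2 to 93.2 in DN:HOM (7 of 7 higher), and at 16.4 to 27.3 in KO:WT and 20.4 to 26.7 in KO:HOM (0 of 7). They were at 94.7 CPM in the library labelled DN:WT animal 10 and 24.3 in that labelled DN:HOM animal 12, so the knock-in groups overlapped over all 48 livers. Macrophage markers were at 178 to 340 CPM in DN:WT, 1239 to 2000 in DN:HOM, 104 to 316 in KO:WT and 513 to 2469 in KO:HOM, higher in 9 and 8 of 10. These markers were at 1906 CPM in the library labelled DN:WT animal 10 and 190 in that labelled DN:HOM animal 12. Clec4f, which marks resident Kupffer cells, was the macrophage marker that fell, by 7.74 in DN:HOM (adjusted p = 2.9e-19) and 1.18 in KO:HOM (adjusted p = 0.00072; all 48, adjusted p = 0.28). Its difference between the homozygous effects was -6.56 over 46 livers (adjusted p = 1e-13) and -2.06 over all 48 (adjusted p = 0.17). Smooth muscle markers were at 9.77 to 15.7 CPM in DN:WT and 19.7 to 28.3 in DN:HOM (3 of 5 higher), with 25.9 in the library labelled DN:WT animal 10 and 10.9 in that labelled DN:HOM animal 12. Sinusoidal endothelial markers were at 184 to 263 and 181 to 288 CPM (3 of 10 higher, near the background, and 6 lower), and mesothelial markers at 1.27 to 9.89 and 6.595 to 17.3 CPM (3 of 7 higher). Hepatocyte markers were at 63701 to 80052 CPM in DN:WT and 34498 to 44815 in DN:HOM (8 of 10 lower), and at 75535 to 103164 in KO:WT and 53594 to 79448 in KO:HOM (6 of 10 lower). The library labelled DN:WT animal 10 was at 44806 CPM and that labelled DN:HOM animal 12 at 83190. Over all 48 livers 7 of 10 hepatocyte markers were lower in DN:HOM and 3 of 10 in KO:HOM. Col18a1 fell in DN:HOM and was at -0.13 (adjusted p = 0.19) in KO:HOM, and its relation to the hepatocyte markers was not tested. The part of these cell types in the collagen results was not tested.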

How the data were processed

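Livers of 48 mice were compared. The authors deposited one table of whole-number read counts per gene and liver, made with STAR 2.5.0a on GRCm39 per the labels, from stranded messenger RNA libraries. Metal beads were used to break up the tissue of every liver, and the study itself tested with DESeq2. Of the read columns, the one for the strand of the gene was used. Its 4 summary lines, holding 24.0 to 35.0% of reads outside genes or ambiguous, were left out of library sizes. Of the 55416 gene IDs, 54749 matched GENCODE M39, which gave names, exon lengths and starts.

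Genes with enough reads (filterByExpr) were scaled by TMM and tested with edgeR 4.0.16 (quasi-likelihood, limma 3.58.1, R 4.3.3) in a model of 6 group means, with Benjamini-Hochberg adjustment over all 15711 genes tested and a threshold of 0.05. The script was tested on simulated data. CPM are counts per 1000000 of TMM-scaled library size, and CPM per kb divides by summed exon length. Tables and figures were made with Python 3.11.15, pandas 2.3.3 and matplotlib 3.10.9. No 2 libraries of a group were identical. Matching the knock-in libraries to the study's per-liver source data for the FXR target gene panel found 22 of 24. The p-values judge a difference between group means against the spread between mice within groups, estimated over the 6 groups together.

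The members and lists were chosen with earlier results of these data known. Named genes are the main collagen chains fixed by name, the 5 largest rises and 3 largest falls at a mean of at least 1 CPM in each homozygous comparison, all members that fell, and from each list of collagen handling genes the largest rise, the largest fall and the most abundant changed gene, besides Serpinh1, Lox, Tgfb1 and Ddr2. Of the genes this rule names, 1 is not reported here. Other genes named were chosen after their values were seen. Alternatives were all 48 livers, DESeq2 1.42.0, other scalings and filters, unstranded counts, smaller fits, stricter thresholds and libraries left out.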

Additional observations from a re-analysis of the deposited data

Results flagged for a closer look

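Among the members, 16 of 114 sets of values (a gene in a group) had 1 liver far from the rest by Dixon's test, which chance alone does in about 1 in 20. KO:HET animal 9 stood out in 6 genes, high for Col1a1 (45.3 CPM), Col1a2 (50.2 CPM), Col3a1 (118 CPM), Col5a2 (13.2 CPM), Col6a1 (26.9 CPM) and Col6a3 (37.4 CPM), and low for a further one, Col27a1 (20.9 CPM). KO:WT animal 23 was high for Col1a1 (32.7 CPM), Col1a2 (46.1 CPM), Col3a1 (92.6 CPM), Col5a2 (8.27 CPM) and Col8a1 (2.15 CPM). In the knock-in study DN:WT animal 5 was high for Col6a3 (12.8 CPM) and Col20a1 (4.67 CPM), and DN:HOM animal 33 was low for Col15a1 (19.6 CPM). KO:WT animal 5 was high for Col20a1 (2.62 CPM).

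The knock-in and knockout homozygous effects differed, by the test of the difference over 46 livers, in 22 collagens (log2 scale, knock-in minus knockout). Among fibrillar chains it was 2.48 for Col1a1, 2.14 for Col1a2, 2.29 for Col3a1, 0.82 for Col5a1, 2.16 for Col5a2, -2.72 for Col24a1 and -1.23 for Col27a1. Among basement membrane chains it was 1.54 for Col4a1, 0.90 for Col4a2, 2.11 for Col4a4, 2.90 for Col4a5, 5.96 for Col4a6, 1.09 for Col15a1 and -0.43 for Col18a1. Among type VI chains it was 1.52 for Col6a1, 1.84 for Col6a2, 2.58 for Col6a3, 3.11 for Col6a5 and 2.90 for Col6a6. It was 2.49 for Col8a1, 0.99 for Col16a1 and -1.91 for Col20a1. With all 48 livers, 4 of the 22 passed (Col4a6, Col6a6, Col20a1 and Col24a1), a share of the collagens tested near that of all genes given above.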

How the results depend on the processing

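No paired analysis was possible because the groups compared within a study share no animal numbers. Counts of called collagens in DN:HOM against DN:WT, DN:HOM against DN:HET and both heterozygous comparisons stayed within 1.5 times their value under each alternative run. The 3 collagens of KO:HOM against KO:WT became 5 with DESeq2 and with upper-quartile scaling, 6 without the 2 shallow livers, 1 with each study fitted alone, 1 at an adjusted p under 0.01 and 1 at an absolute log2 fold change of at least 1. Of alternatives chosen after seeing the data, leaving out KO:WT animal 23 gave 11 and KO:HET animal 9 gave 7. The 2 collagens of KO:HOM against KO:HET became 9 without KO:HET animal 9, and 1 with all 48 livers, without a low-count filter, at a mean CPM of at least 1, with the compared groups only, with each study alone, at an adjusted p under 0.01 and at an absolute log2 fold change of at least 1. The 22 differences between homozygous effects became 4 with all 48 livers, and the 5 between wild types became 3 at a mean CPM of at least 1 (21 collagens tested) and 3 at an adjusted p under 0.01. With all 48 livers the wild-type count stayed at 5, with Col4a6 lost and Col4a2 gained. The cause was not tested where neither genes nor samples were fewer. Each count here shows how calls depend on the processing and is not set against the share of all genes.

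Over all 48 livers, 5 DN:HET values against DN:WT turned negative, Col1a1 (-0.47), Col1a2 (-0.31), Col3a1 (-0.51), Col5a2 (-0.18) and Col6a3 (-0.38), none of which passed under either choice of livers. The Col14a1 difference between homozygous effects turned positive with DESeq2 (0.0119), upper-quartile scaling (0.0455) and DESeq2 size factors in edgeR (0.0111). Of 52 values of named collagens, 18 lost their call with all 48 livers and 29 kept direction and call. The fibrillar share became 22.6% in DN:WT with all 48 livers. Without dividing by exon length it was 23.6% in DN:WT, 42.6% in DN:HOM, 18.8% in KO:WT, 17.96% in KO:HET and 21.5% in KO:HOM. Low read numbers limit Col4a3, Col4a6, Col6a5, Col24a1 and Col25a1.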
